A study of Mus musculus with 20 samples.

Results

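The genes described are 10 whose reads stood high in arterioles of the mouse kidney cortex and low in its other vessels: Serpinf1, Optc, Pi15, Cytl1, Mall, Slc4a3, Bmx, Ccnd2, Crip1 and Tppp3. They were picked out of 34255 genes in the count table, for high counts in arteriole libraries against every other microdissected library; each symbol was found once. Healthy male wild-type mice of the strain C57BL6/OlaHsd gave all samples, and no animal carried a transgene or received a treatment. Laser microdissection cut 4 microvascular compartments from frozen kidney sections. These were arterioles, glomeruli, the peritubular capillaries (PTC) around the tubules, and post-capillary venules (PCV), and RNA of whole kidney (WK) was sequenced beside them. Each of these 5 groups had 4 libraries, which the table's column names number 93, 96, 98 and 100, and which the labels call biological replicates without naming the mouse. Any p-value here therefore rests on the variation among these samples. Arterioles, glomeruli and venules were recognized by shape after hematoxylin staining and capillaries by isolectin B4, so that a cut piece holds the vessel wall with whatever cells touch it, not endothelium alone. Totals ran from 4639090 to 12283098 counts per library. Levels are given as CPM, a gene's reads as a share of the library rescaled to one common total, after adjustment of library sizes by the trimmed mean of M values (TMM).

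The wall of an arteriole is a single layer of endothelium surrounded by smooth muscle, whose contraction sets flow and pressure in the vessels downstream, and by an outer coat of fibroblasts, matrix and nerve endings. A gene high in a cut arteriole can therefore belong to any of these layers. None of the genes described is part of the contractile machinery for which arterioles are best known: 4 encode secreted proteins, 2 encode proteins of cell membranes and 4 act inside the cell.

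The arteriole label was met by its marker genes. Summed over 10 smooth muscle genes, which include Acta2, Myh11 and Tagln, arterioles held 35590 ± 14140 CPM (SD, n = 4), the glomeruli 2370 ± 351, capillaries 792 ± 238, venules 1483 ± 195 and whole kidney 574 ± 75.3. A list of 9 arterial endothelial genes gave 3203 ± 1262 CPM in arterioles and at most 1653 in any other library, and none of the genes of these 2 lists was at 0 in arterioles. Genes of other cells were also read in the arteriole libraries. The sum over 4 hemoglobin genes, 34810 ± 28410 CPM, was close to that of the smooth muscle list, and it was 34150 ± 15490 CPM in venules. Proximal tubule genes summed to between 8664 and 15700 CPM, under the 34610 to 36080 of whole kidney, podocyte genes to between 1088 and 1752 against 208 to 238 in whole kidney, and fibroblast genes to between 2197 and 5218 against 283 to 310. In bulk samples of this kind, more cells of a type and more RNA per cell cannot be told apart.

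The rule that chose these genes used their arteriole values, so what follows on arterioles against the other libraries is a description without a test. In all 10 genes each of the 4 arteriole libraries stood above each of the 12 other microdissected libraries. The same held for 2.28% of the 12179 genes tested, and nothing is read from that share because the rule looked for this pattern. The arteriole libraries also stood above all 4 whole kidney libraries in all 10 genes, as they did in 8.43% of the 13813 genes tested with whole kidney included. By the fitted fold of arterioles over the mean of the 3 other compartments, Optc ranked at 4 of all genes tested, with a log2 fold change of 8.98, followed by Pi15 at 11, Serpinf1 at 12, Bmx at 14, Mall at 16 and Cytl1 at 25. Tppp3 came at 85, Slc4a3 at 223 and Crip1 at 241, and Ccnd2 had the smallest fold of the 10, ranking at 905 with a log2 fold change of 3.30. The rule sets no numeric threshold, so there is no edge at which members just inside and just outside could be compared.

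**Figure D1:**
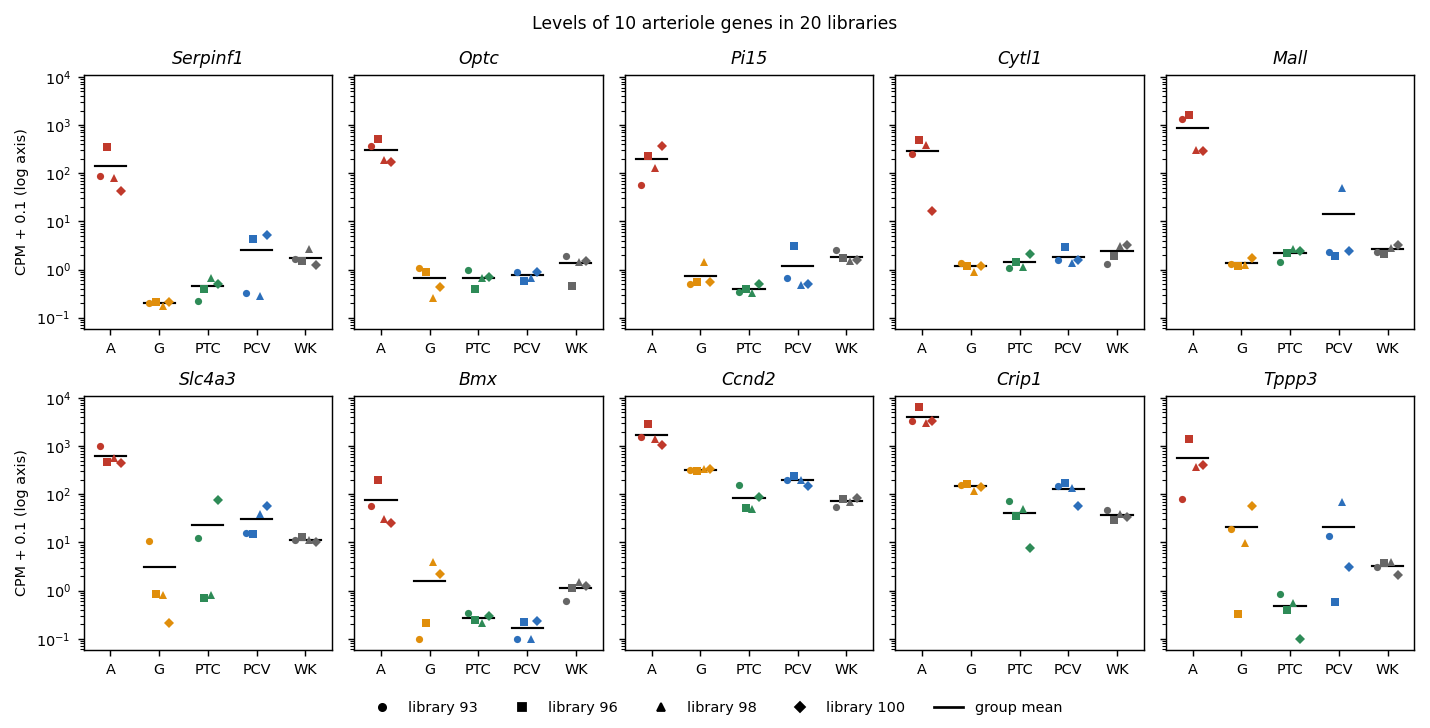
Level of each of the 10 genes in the 20 libraries, as CPM + 0.1 on a log axis, with 1 panel per gene, 1 symbol per library number and a black line at each group mean (A, arterioles; G, glomeruli; PTC, peritubular capillaries; PCV, post-capillary venules; WK, whole kidney). All 4 arteriole points lie above all other points in every panel, while Tppp3 comes closest to overlap, with 80.7 CPM in its lowest arteriole library and 67.8 CPM in its highest other library.

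Serpinf1 encodes pigment epithelium-derived factor, a secreted member of the serpin family that inhibits new vessel growth and, unlike most of its relatives, blocks no protease. The gene lies on chromosome 11 of GRCm38, from 75409769 to 75422701 on the minus strand. In arteriole libraries 93, 96, 98 and 100 its level was 87.6, 354, 78.0 and 41.8 CPM. Library 96 stood well above the others. In the other compartments the counts were at or near the floor. Each glomerular library held 1 read, the capillary libraries held between 1 and 5, and the venules held 2, 35, 1 and 38 reads in the order given, so that venule libraries 96 and 100 stood above the 10 others. Pooled over libraries, arterioles exceeded glomeruli 1432-fold, with a 95% interval for counting error of 559 to 5257. Such counting intervals, here and for the genes below, leave out the spread among libraries and are no test. The ratio of the arteriole mean to the mean of the 12 other libraries was 146. Without arteriole library 96 it was 72.1 and without venule library 100 it was 240.0.

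Optc encodes opticin, a small leucine-rich repeat proteoglycan first known from the vitreous of the eye. It spans chromosome 1 from 133897199 to 133907999 on the minus strand. Its arteriole levels were 372, 506, 187 and 172 CPM, so libraries 93 and 96 stood above libraries 98 and 100. No other microdissected library reached 1 CPM: counts ran from 2 to 10, and glomeruli (0.563 ± 0.388 CPM), capillaries (0.582 ± 0.234) and venules (0.655 ± 0.160) overlapped throughout. Whole kidney held 1.24 ± 0.628 CPM, which was 0.399% of the arteriole mean of 309 ± 159. The arteriole mean was 516 times the mean of the 12 other libraries, and between 407 and 592 times when each arteriole library was left out in turn.

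Pi15 encodes peptidase inhibitor 15, a secreted protein of the CAP superfamily with weak activity against trypsin. It lies on chromosome 1 from 17601901 to 17630939 on the plus strand. Arteriole levels were 56.1, 224, 126 and 371 CPM in libraries 93, 96, 98 and 100. Library 100 was the highest here, unlike in the 9 other genes. Every capillary library held 2 reads, 3 of the 4 glomerular libraries held 4, and venule library 96 reached 24 reads, or 2.91 CPM, which was the highest level outside arterioles among the microdissected libraries. The pooled ratio of arterioles to capillaries was 683, with a counting interval of 346 to 1582.

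Cytl1 encodes cytokine-like 1, a small secreted protein found in cartilage and in CD34+ blood progenitors. It covers 37735519 to 37739820 of chromosome 5 on the plus strand. Of all 10 genes it was the most uneven among arterioles, with 256, 484, 378 and 16.1 CPM. Library 100 thus held 5.68% of the group mean, and the highest library was 30.0 times the lowest. The 12 other libraries held 7 to 23 reads each, or at most 2.79 CPM, so even the low arteriole library was 5.79 times the highest of them. Whole kidney held 1.21 to 3.20 CPM.

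Among the secreted proteins, then, Serpinf1, Optc and Cytl1 were highest in arteriole library 96 and Pi15 in library 100, and Optc varied least. The 4 promoters printed next show what sequence lies upstream of genes of each kind: Optc, a secreted protein with hardly a read outside arterioles, Mall of the membrane group, the kinase gene Bmx, and Crip1, which was also read in the other vessels. Each is the 250 bases before the RefSeq start on GRCm38.p6, 5′ to 3′ on the gene's strand, and capitals mark matches to the motifs described afterwards.
Optc: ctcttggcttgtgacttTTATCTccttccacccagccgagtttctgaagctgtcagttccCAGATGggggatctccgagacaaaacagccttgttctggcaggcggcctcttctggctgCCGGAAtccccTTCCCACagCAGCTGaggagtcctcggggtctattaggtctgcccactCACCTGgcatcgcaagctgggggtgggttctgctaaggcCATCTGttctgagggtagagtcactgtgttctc
Mall: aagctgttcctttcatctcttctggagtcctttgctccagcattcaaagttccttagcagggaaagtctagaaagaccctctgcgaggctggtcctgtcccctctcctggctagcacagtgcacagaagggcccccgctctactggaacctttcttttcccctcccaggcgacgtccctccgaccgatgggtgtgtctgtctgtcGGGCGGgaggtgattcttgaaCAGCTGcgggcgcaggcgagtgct
Bmx: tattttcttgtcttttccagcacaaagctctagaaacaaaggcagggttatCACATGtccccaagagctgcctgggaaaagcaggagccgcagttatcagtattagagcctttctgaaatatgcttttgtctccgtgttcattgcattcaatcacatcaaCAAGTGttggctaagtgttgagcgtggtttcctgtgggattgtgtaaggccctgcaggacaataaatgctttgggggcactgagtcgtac
Crip1: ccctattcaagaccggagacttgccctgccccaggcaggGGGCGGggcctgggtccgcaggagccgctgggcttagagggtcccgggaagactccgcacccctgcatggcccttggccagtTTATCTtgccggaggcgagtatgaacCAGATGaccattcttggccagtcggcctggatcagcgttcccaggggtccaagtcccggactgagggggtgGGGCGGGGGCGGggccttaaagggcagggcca

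RefSeq held a promoter for 7 of the 10 genes, Pi15, Ccnd2 and Tppp3 having no entry in the table used. They lie on chromosome 1 from 133908000 to 133908249 (Optc, minus strand), chromosome 2 from 127729898 to 127730147 (Mall, minus), chromosome X from 164258194 to 164258443 (Bmx, minus) and chromosome 12 from 113151762 to 113152011 (Crip1, plus). Both strands were searched for 7 motifs: the TATA box TATAAA, the GC box GGGCGG, the E-box CANNTG, the GATA site AGATAA, the CArG box, the ETS core CCGGAA and the RBPJ site GTGGGAA. The E-box reads the same in both directions, and in the promoters printed no match overlapped one of another motif. It was found in 6 of the 7 promoters and in 66.2% of 32851 promoters of that length. A GC box stood in 4, namely Cytl1, Mall, Slc4a3 and Crip1, against 32.7% of all promoters, and in Crip1 it occurred 3 times. The GATA site was found in Serpinf1, Optc and Crip1 (9.99% of all promoters), the RBPJ letters in Optc and Slc4a3 (5.42%) and the ETS core in Optc (12%). Neither the TATA box (12.4% of all promoters) nor the CArG box (1.47%), the motif of serum response factor in smooth muscle genes, was found in any of the 7. The G and C content ran from 45.6% in Bmx to 70.0% in Slc4a3, around a median of 52.4% over all promoters. A match is a run of letters and no evidence of binding.

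Mall encodes a MAL-like protein that spans the cell membrane and resides in cholesterol-rich rafts. The gene lies on chromosome 2 from 127704386 to 127729932 on the minus strand. Arteriole levels were 1318, 1636, 303 and 285 CPM, so libraries 93 and 96 formed a high pair and libraries 98 and 100 a low one. Elsewhere the counts were low and even, from 10 to 22 reads, apart from venule library 98, which held 269 reads or 49.7 CPM beside 1.82 to 2.27 CPM in the other venules. The arteriole mean of 885 ± 696 CPM was 153 times the mean of the 12 other libraries and, without that venule library, 493 times. Whole kidney held 2.53 ± 0.553 CPM, or 0.285% of the arteriole mean, which was the lowest such share of the 10 genes.

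Slc4a3 encodes the anion exchanger AE3, which swaps chloride for bicarbonate and is best known from heart and brain. It spans 75546266 to 75562172 of chromosome 1 on the plus strand. Arteriole levels were 1009, 474, 558 and 443 CPM, the second narrowest spread of the 10 genes, and library 93 rather than 96 was the highest. Outside arterioles it was read unevenly. Glomeruli held 10.4, 0.770, 0.697 and 0.110 CPM, so library 93 carried almost all of their reads. Capillaries held 12.5, 0.588, 0.698 and 77.3 CPM, and venules 15.3, 14.7, 39.1 and 55.8 CPM. The glomerular and capillary libraries overlapped, whereas each venule library exceeded each glomerular one.

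Bmx encodes a cytoplasmic tyrosine kinase of the TEC family, long used as a mark of arterial endothelium. It covers 164192842 to 164258193 of the X chromosome on the minus strand. Its arteriole levels were 56.1, 195, 29.9 and 25.7 CPM, with library 96 again the highest. Venules held 0, 1, 0 and 1 reads and capillaries 2, 1, 1 and 1, so that both were at the floor of counting. Of the glomerular libraries, 93 and 96 held 0 and 1 read, while 98 and 100 held 49 and 19, or 3.80 and 2.08 CPM. Pooled, arterioles exceeded capillaries 424-fold, with a counting interval of 182 to 1308. The ratio to the mean of the 12 other libraries was 132, but 64.3 without arteriole library 96 and 268 without glomerular library 98.

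Ccnd2 encodes cyclin D2, which activates the kinases that take a cell from G1 into DNA replication. The gene lies on chromosome 6 from 127125162 to 127152193 on the minus strand. Arteriole levels were 1568, 2891, 1392 and 1039 CPM. No library was without it: the other compartments ranged from 48.8 to 340 CPM and whole kidney from 54.5 to 82.5 CPM. Arterioles exceeded glomeruli 5.37-fold, venules 8.80-fold and capillaries 20.2-fold by the ratio of means.

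Crip1 encodes a small cysteine-rich protein with a single LIM domain, a zinc-binding fold that holds proteins together. It is annotated on chromosome 12 from 113146316 to 113153879 on the plus strand. With 3339, 6427, 3013 and 3319 CPM it had the narrowest spread among the arteriole libraries. After TMM scaling library 96 stood apart from the others, which nearly coincided. Glomeruli held 146 ± 22.1 CPM, venules 57.8 to 174 CPM, capillaries 41.6 ± 27.9 and whole kidney 37.2 ± 7.60. The arteriole mean was 38.1 times the mean of the 12 other libraries, and between 30.5 and 41.3 times when each arteriole library was left out.

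Tppp3 encodes a tubulin polymerization-promoting protein that bundles microtubules. It lies on chromosome 8 from 105467493 to 105471526 on the minus strand. Its arteriole levels were 80.7, 1383, 377 and 397 CPM, so library 93 held 14.4% and library 96 held 247% of the mean. Glomeruli (18.7, 0.220, 9.61 and 56.4 CPM) and venules (13.3, 0.484, 67.8 and 2.94 CPM) varied by more than 100-fold within the group, and capillaries held 6, 2, 4 and 0 reads. Without arteriole library 96 the ratio to the mean of the 12 other libraries fell from 39.3 to 20.01, and without venule library 98 it was 59.6.

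The 10 genes did not share one profile over the arteriole libraries. Library 96 was the highest for 8 of them and library 100 the lowest for 7, but Pi15 was highest in library 100 and Slc4a3 in library 93. These levels carry the TMM factor, and a small factor raises CPM. It was smallest in library 96 (0.5454) and ran from 0.7717 to 1.016 in the other arteriole libraries. By plain library totals Optc and Mall were highest in library 93 and Cytl1 in library 98. Serpinf1, Bmx, Ccnd2, Crip1 and Tppp3 stayed highest in library 96, and Slc4a3 was then lowest there. The SD of log2 levels over the arteriole libraries had a median of 1.23 over the 10 genes, from 0.503 for Crip1 to 2.23 for Cytl1, beside a median of 0.986 (quartiles 0.677 and 1.37) over the 2516 genes that had at least 10 CPM in all 4 of these libraries. Marker lists moved with the libraries too. On the same TMM-scaled levels library 96 was the highest of the arterioles in 7 of 9 lists, proximal tubule and leukocyte genes being the exceptions. The hemoglobin genes stood at 218% of their mean in library 96 and 8 genes of the distal nephron, from loop to collecting duct, at 171%. Library 96 held 148% of the mean summed level of the 10 smooth muscle genes, 157% for 9 arterial endothelial genes, 130% for 12 pan-endothelial genes and 144% for 10 fibroblast and adventitial genes. In library 100 the smooth muscle list stood at 62.5% of its mean and in library 93 at 117%. Cytl1 in library 100 was 5.68% of its mean, below every marker list shown for that library, the lowest of which stood at 62.5%. With 4 libraries no correlation was computed, and the part of cell makeup in these profiles was not tested.

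**Figure D2:**
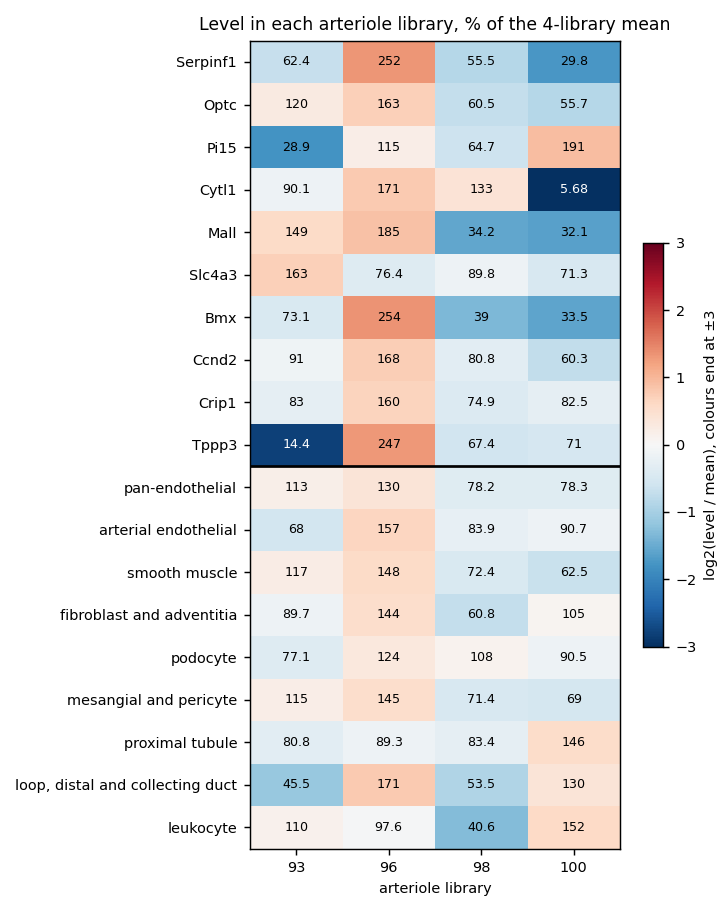
Level of each gene (above the line) and summed level of 9 marker lists (below it) in arteriole libraries 93, 96, 98 and 100, printed as a percentage of the 4-library mean and coloured by its log2. Library 96 is the highest in 8 of 10 genes, whereas Cytl1 falls to 5.68% in library 100 and Tppp3 to 14.4% in library 93.

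Whole kidney mixes all compartments with tubules, and it was prepared without microdissection and with fewer cycles of amplification, so that tissue and preparation cannot be told apart in this comparison. As a share of the arteriole mean, whole kidney levels were 0.285% for Mall, 0.399% for Optc, 0.562% for Tppp3, 0.816% for Cytl1, 0.898% for Pi15 and 0.924% for Crip1. They were 1.17% for Serpinf1, 1.34% for Bmx, 1.82% for Slc4a3 and 4.20% for Ccnd2. The smooth muscle list stood at 1.61%, the arterial endothelial list at 4.46%, the fibroblast list at 8.14% and the pan-endothelial list at 10.96% of its arteriole mean. Of the 10 genes, 8 lay below the smooth muscle share. Nothing is read from that count, because the rule chose the genes for the arteriole values on which these shares rest. Slc4a3 was even across whole kidney libraries, from 10.2 to 12.6 CPM, although it varied 131-fold among capillary libraries.

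**Figure D3:**
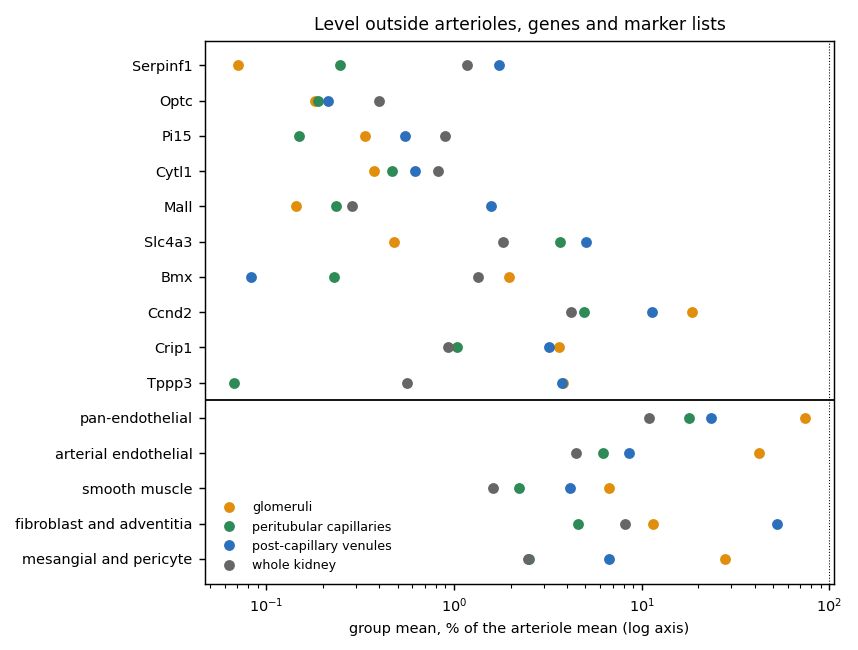
Mean level of each gene, and of 5 marker lists below the line, in glomeruli, peritubular capillaries, post-capillary venules and whole kidney, as a percentage of the arteriole mean on a log axis; the dotted line marks 100%. Ccnd2 keeps 18.6% of its arteriole level in glomeruli, while Tppp3 in capillaries and Serpinf1 in glomeruli lie near 0.07%.

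Whether the genes also differed among the 3 other compartments is a question the rule did not ask, and it was tested in an edgeR quasi-likelihood fit of the 16 microdissected libraries, with Benjamini-Hochberg adjustment (FDR) over all 12179 genes and a call at an FDR under 0.05. Between glomeruli and capillaries 3 of the 10 genes were called, 1 of which is a description only, as given below. All 3 were higher in glomeruli. Of all genes tested, 4.49% were called and 2.2% were called higher in glomeruli. Ccnd2 stood at 313, 301, 328 and 340 CPM in the glomerular libraries and at 154, 50.7, 48.8 and 87.0 CPM in the capillary ones, without overlap. The log2 difference was 1.92 (SE 0.449, 95% interval 1.01 to 2.83, FDR 0.00637). Crip1 did not overlap between the groups either, with 116 to 166 CPM against 7.41 to 73.9 CPM, a log2 difference of 1.82 (SE 0.452, FDR 0.0109). The third was Tppp3, with a fitted difference of 5.71 (SE 1.29), though glomerular library 96, with 2 reads, lay within the capillary range. Tppp3 would not have passed the filter on low counts in these 8 libraries and entered the fit through its arteriole reads, so its value is a description. Of the 4 genes that passed in the 8 libraries, Cytl1, Mall, Ccnd2 and Crip1, 2 were called. The calls of Ccnd2 and Crip1 held without any 1 of the 16 libraries, as did the fitted value of Tppp3. Marker lists also differed between these compartments. Summed pan-endothelial genes ranged from 2761 to 3267 CPM in glomeruli and from 503 to 1139 in capillaries, smooth muscle genes from 1920 to 2777 and from 586 to 1124, and 8 mesangial and pericyte genes from 1407 to 2586 and from 79.5 to 261, with no gene of these lists at 0 in either group. Tubule genes stood the other way: 8 proximal tubule genes summed to 5370 to 7516 CPM in glomeruli and 62460 to 117100 in capillaries, and the 8 distal nephron genes to 620 to 1099 and 3241 to 4540. The part of cell makeup in these differences was not tested.

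Slc4a3 had a fitted log2 difference of -2.92 (SE 1.06) between glomeruli and capillaries, and it too entered the fit through its arteriole reads. Without glomerular library 93 the fitted value was -5.40. That library was the highest of its group in 5 of 9 marker lists and the lowest in 3. Capillary library 100, which held most capillary reads of Slc4a3, was the highest of its group in 6 of the 9 lists, tubule and podocyte genes included; the part of cell makeup was not tested. The 6 other genes were not called. Of these, Serpinf1, Optc, Pi15 and Bmx did not pass the filter in the 8 libraries compared, so their values are descriptions. The 95% intervals were wide: that of Optc ran from -1.92 to 1.82, that of Cytl1 from -2.25 to 1.65 and that of Bmx from -0.63 to 6.59. A difference of several-fold in either direction could thus not be seen for Optc and Cytl1. For Bmx the interval reached far only on the side of higher levels in glomeruli.

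Between glomeruli and venules 1 of the 10 genes was called, where 1.22% of all genes tested were, 0.731% being lower in glomeruli. Mall was lower in glomeruli by a log2 difference of -3.44 (SE 0.849, FDR 0.0286). The call rested on venule library 98: glomeruli held 1.10 to 1.64 CPM and the other venules 1.82 to 2.27 CPM, and without that library the difference was -0.72 with an FDR of 0.876. It was also lost, with differences between -3.33 and -3.58, when any 1 glomerular library was left out, and with the library number as a block (FDR 0.187). Venule library 98 was the lowest of its group in 6 of 9 marker lists, smooth muscle and arterial endothelium included, and the highest in 1, pan-endothelial genes; the part of cell makeup in the Mall value was not tested. Slc4a3 (-3.38, SE 1.08, FDR 0.133) and Serpinf1 (-4.42, SE 1.53, FDR 0.168) were not called, though without glomerular library 93 the difference of Slc4a3 was -5.89 (FDR 0.00847) and with the block -3.95 (FDR 0.0494). Serpinf1, Optc, Pi15 and Bmx did not have enough reads in these 8 libraries to pass the filter there, so their values are descriptions. Ccnd2 (0.71, SE 0.436) and Crip1 (0.17, SE 0.438) were not called, with intervals of -0.17 to 1.59 and -0.71 to 1.06. For Ccnd2 each glomerular library (301 to 340 CPM) nonetheless stood above each venule library (147 to 241 CPM), while Crip1 overlapped.

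Between capillaries and venules the fit called 1 of the 10 genes, but that gene did not pass the filter in these 8 libraries. The count is therefore not read against the 0.411% of all genes tested that were called, 0.328% being lower in capillaries. That gene was Tppp3, with a fitted difference of -5.70 (SE 1.29), and it again entered the fit through its arteriole reads, so the value is a description. The groups overlapped in venule library 96, which held 0.484 CPM beside up to 0.744 CPM in capillaries, and the call was lost without capillary library 96, 98 or 100 or venule library 98. Of the 5 genes that passed the filter in these 8 libraries, edgeR called 0, DESeq2 called 0, and 3 had an unadjusted p under 0.05. Crip1 (-1.64, SE 0.450, FDR 0.104), Mall (-2.75, SE 0.826, FDR 0.169) and Ccnd2 (-1.21, SE 0.440, FDR 0.274) were not called; without capillary library 93 Crip1 reached -2.08 with an FDR of 0.0395. Crip1 was also called in 2 of 7 alternative settings. With the library number as a block its difference was -1.72 with an FDR of 0.0375. The order of mean levels below arterioles was thus glomeruli, venules, capillaries for Ccnd2, Crip1 and Tppp3. For Tppp3 the means of glomeruli and venules were nearly equal, at 21.25 ± 24.65 and 21.11 ± 31.58 CPM. For Ccnd2 and Crip1 neighbouring steps in that order did not pass the test in the main fit.

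**Figure D4:**
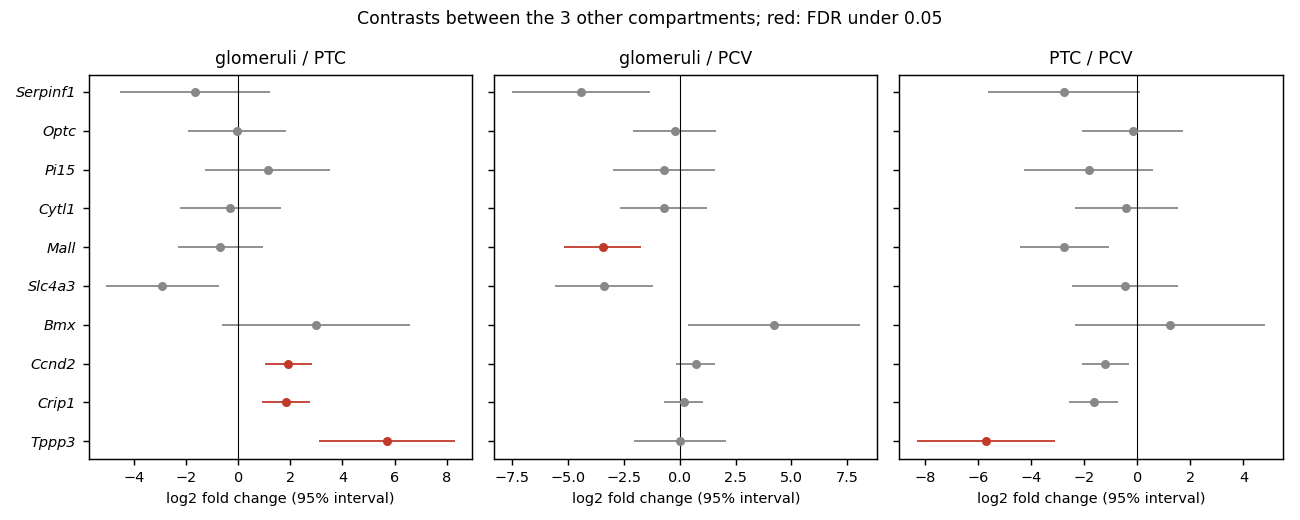
Log2 fold changes of the 10 genes with 95% intervals for glomeruli over peritubular capillaries (PTC), glomeruli over post-capillary venules (PCV) and PTC over PCV, from the edgeR fit of 16 libraries; red marks an FDR under 0.05. Ccnd2, Crip1 and Tppp3 are red in the first panel, Mall in the second and Tppp3 in the third, Tppp3 passing the filter in these panels through its arteriole reads, and the horizontal axes differ between panels.

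Relatives of the 10 genes were not picked by their counts, but they were listed with earlier results of these data known. The lists took in other serpins, small leucine-rich proteoglycans, CAP proteins, secreted cytokines and MARVEL proteins. They also took in SLC4 transporters, TEC kinases, partners and inhibitors of cyclin D, LIM proteins and the other TPPP genes. The cytokines beside Cytl1 and the partners and inhibitors beside Ccnd2 were not chosen as members of the same gene family. The lists are selections, so their shares speak for the genes listed and not for whole families. Of 71 listed genes, 69 were in the table and 46 passed the filter on low counts. In arterioles 17 of the 46 were higher and 5 lower than the mean of the 3 other compartments, or 37.0% and 10.9%, beside 8.11% and 3.23% of all genes tested. Of the listed relatives 5, namely Dcn, Lum, Pi16, Slc4a1 and Cdkn1c, are also in marker lists of fibroblasts, erythrocytes or podocytes.

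Among the listed groups, the proteoglycans and the LIM proteins had the largest shares called higher. Among relatives of Optc, 4 of 5 tested were higher: Fmod, fibromodulin, which regulates collagen fibrils (422 CPM in arterioles, 9.45 in glomeruli; log2 difference 5.90, SE 0.663, FDR 2.41e-08 by edgeR), Dcn, decorin (3.60), Bgn, biglycan (2.83), and Ogn (2.81). Dcn was also high in venules, at 855 CPM against 1273 in arterioles, where Optc had 0.655 CPM in venules. Among relatives of Crip1, 3 of 4 tested were higher: Csrp1, a LIM protein of smooth muscle (1591 CPM in arterioles; 4.05, SE 0.404, FDR 1.41e-09), Lmcd1 (3.23) and Crip2 (2.77). Crip2 kept 650 CPM in glomeruli against 946 in arterioles.

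Among serpins 4 of 7 tested were higher, namely Serpini1, or neuroserpin (4.68), Serpinh1, the collagen chaperone HSP47 (2.25), Serpine2 (2.18) and Serping1 (1.45), the inhibitor of complement C1. Serpinf2, the plasmin inhibitor of the same clade as Serpinf1, was lower (-2.72, SE 0.755, FDR 0.0148), with 536 CPM in capillaries against 21.0 in arterioles. Serpine2 was nonetheless at 364 CPM in glomeruli and 283 in arterioles, and its call is against the mean of the compartments on the log scale. Of the CAP proteins, 2 of 5 were higher: Crispld1 (5.21) and Pi16 (3.87). The Crispld1 call was lost without arteriole library 93 or 98, with an FDR up to 0.0761, and with the block (3.94, FDR 0.202). Pi16 stood at 130 CPM in glomeruli against 114 in arterioles.

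The membrane families did not move as one. Of 9 MARVEL relatives of Mall, Marveld1 was higher (2.47, SE 0.544, FDR 0.00182), whereas Mal (-3.82, FDR 0.00913) and Cmtm8 (-5.01, FDR 0.0443) were lower and the median of the 9 was -0.44. The Cmtm8 call was lost in 11 of the 16 fits that left out 1 library, with an FDR up to 0.0878. Of 6 SLC4 transporters, Slc4a8 was higher (4.02, FDR 0.0387) and Slc4a4, the sodium bicarbonate cotransporter of the proximal tubule, lower (-2.13, SE 0.408, FDR 0.000332). The Slc4a8 value rested on arteriole library 96 (8 other libraries also ended the call when left out), without which it was -2.85 with an FDR of 0.392. Slc4a2, which encodes another chloride-bicarbonate exchanger, had 71.2 CPM in arterioles beside 56.3 in the glomerular group and was not called (0.66, SE 1.05).

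Of 8 sister cyclins, partners and inhibitors, Cdkn1a, the inhibitor p21, was higher (2.38, SE 0.745, FDR 0.0316) and Cdkn1c, an inhibitor typical of podocytes, lower (-3.30, SE 0.766, FDR 0.00309). The kinase genes Cdk4 (1.35, SE 1.40) and Cdk6 (1.45, SE 0.681) and the sister cyclins Ccnd1 (0.60, SE 0.471) and Ccnd3 (1.52, SE 0.571) were not called. Among secreted cytokines Cx3cl1 was higher (1.46) and Cxcl12 was not called. No TEC kinase other than Bmx passed the filter, nor did Tppp or Tppp2, so that neither Bmx nor Tppp3 had a relative to set beside it.

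**Figure D5:**
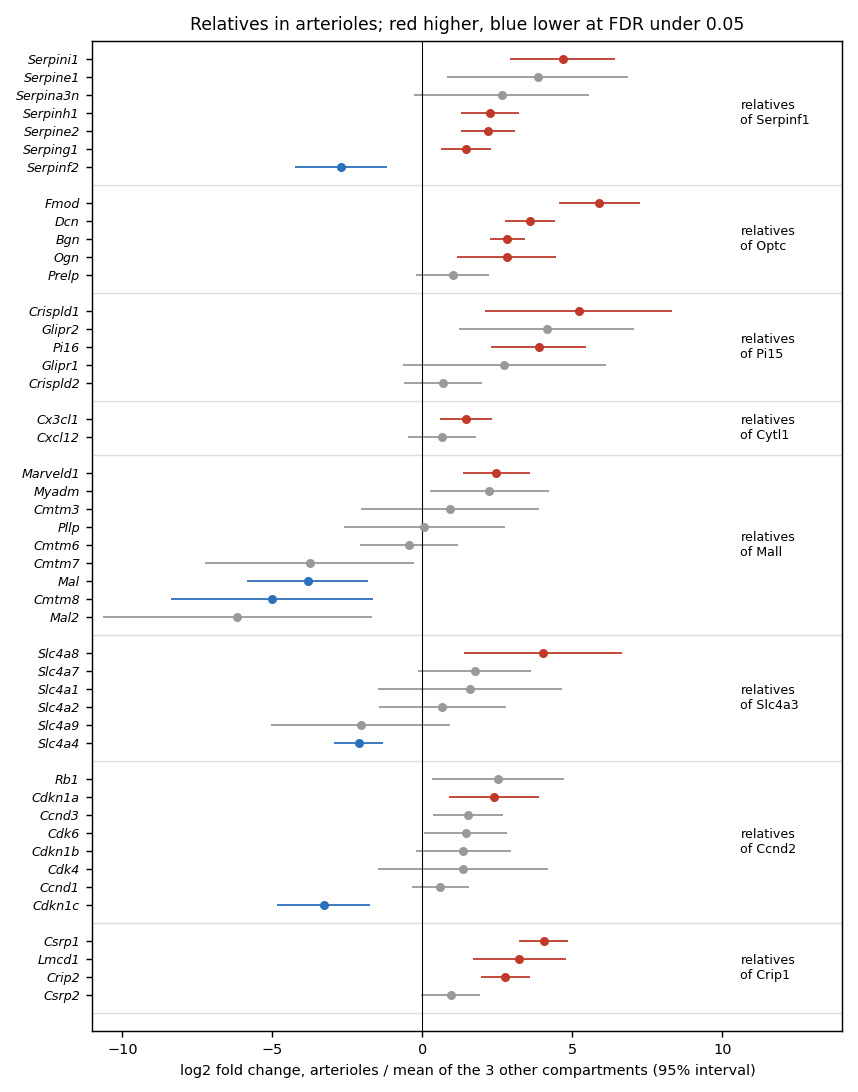
Log2 fold change of arterioles over the mean of the 3 other compartments, with 95% intervals, for the 46 relatives tested, grouped by the gene they are related to; red marks higher and blue lower at an FDR under 0.05. All points of the proteoglycan and LIM groups lie to the right of 0, whereas the MARVEL group spans from -6.17 to 2.47.

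To name genes of like pattern, the root mean square difference of centred log2(CPM + 1) over the 20 libraries was taken against each of 2482 genes with at least 10 CPM in all arteriole libraries; predicted genes and pseudogenes were passed over. Kcnab1, which encodes a beta subunit of voltage-gated potassium channels, was the nearest gene to Optc (0.679, where the median over all compared genes was 2.80) and to Pi15 (0.696) and among the 3 nearest to Serpinf1 and Bmx. Hey2, a Notch target in arterial cells, was the nearest to Bmx (0.662), followed by Nkx6-1 (0.685). Serpinf1 and Cytl1 were each other's nearest gene, at 0.844. The nearest to Crip1 were Flna (0.615), Tpm2 (0.744) and Acta2 (0.827), which encode filamin, tropomyosin and smooth muscle actin, and those to Ccnd2 were Mylk (0.529), Epas1 (0.563) and Pecam1 (0.584), a mixture of muscle and endothelial genes. Mall had Fbxl22 (0.931), Optc (1.00) and Vwf (1.08), the last encoding von Willebrand factor of endothelium. Slc4a3 and Tppp3 had no close neighbour: the nearest were Col5a1 at 1.5 and Gpc6 at 1.40. These distances are dominated by the step between arterioles and the rest and describe likeness in these libraries only.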

How the data were processed

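Total RNA was made into 3′ tag libraries (QuantSeq), with a low-input modification and more amplification cycles for microdissected pieces. The authors trimmed reads, aligned them with STAR 2.7 and counted them per gene; HTSeq 0.13 and featureCounts are both named in the submitters' processing notes, with GRCm38.p6 and GRCm39 as builds, and the gene coordinates given here are those of GRCm38. The deposited values are raw counts per gene, without normalization. Of 168 value columns, 20 belong to the groups described and 148 were not used here; 3 rows that name no gene were left out. No pair of libraries held identical values (0 pairs). Columns were matched to groups by the compartment letter, and the letters WH in the name of capillary library 96 are not explained in the sources used here.

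Counts were fitted with edgeR 4.0.16 in R 4.3.3 (quasi-likelihood, as the study used, with TMM and filterByExpr chosen here) over the 16 microdissected libraries, 4 per group; shares of genes against whole kidney were taken over the genes that passed the filter applied to all 20 libraries. The threshold was an FDR of 0.05. CPM used the TMM-scaled totals of all 20 libraries. A read count of 3 or fewer was taken as the floor, and ratio intervals (95%, exact conditional binomial) cover counting error only, since amplified reads without molecular identifiers are not independent molecules. The 3′ tags do not scale with transcript length. All 10 genes passed the filter. The genes and the lists of relatives and markers were chosen with earlier results of these data known. Named genes are the 10 members, the called relatives (the 12 with the smallest p, others as examples chosen after their values were seen) and, per member, the 3 nearest in pattern. Of 11 marker lists, 2 are not reported here. The scripts were tested on simulated data. Alternatives were RLE size factors, plain library totals, no filter, DESeq2 1.42.0, the library number as a block, 20 or 8 libraries, and each library left out; plain totals for the tested counts, and the ratios without the highest library outside arterioles, were chosen after seeing the data, as were the hemoglobin genes, the counts of lists in which a library was highest or lowest, and the check of which genes pass the filter in 8 libraries. Antisense predicted genes overlap Optc, Pi15 and Ccnd2, and those in the table had 0 counts in arterioles; no source used here states whether the counting used strand.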

Additional observations from a re-analysis of the deposited data

Results flagged for a closer look

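For each of the 10 genes, the highest and the lowest library of a group of 4 were set against the others by Dixon's ratio in the 46 groups with enough reads. In 8 of them 1 library stood apart. The cut-off marks about 1 in 20 groups only where values are normally distributed. It was applied to CPM without a log, which need not be so distributed, so the 8 are not set against that rate. Each was a high value. Among arterioles it was library 96, with Serpinf1 at 354 CPM (next 87.6) and Crip1 at 6427 CPM (next 3339). Both values carry the small TMM factor of that library (0.5454), which raises its CPM, and the ratio was not taken on plain totals. Among venules, library 98 held Mall at 49.7 CPM (next 2.27), and library 96 held Pi15 at 2.91 CPM (next 0.558) and Cytl1 at 2.79 CPM (next 1.47). Among glomeruli, library 98 held Pi15 at 1.32 CPM (next 0.440) and library 93 held Slc4a3 at 10.4 CPM (next 0.770). Capillary library 100 held Slc4a3 at 77.3 CPM (next 12.5). The Pi15 and Cytl1 values rest on 17 to 24 reads. The cause of these values was not tested.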

How the results depend on the processing

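The counts of members called depended on the setting. Between glomeruli and capillaries, the 3 calls held under every alternative except a fit of only the 8 libraries compared. That fit left 1, Ccnd2, and 4 were called without a filter; leaving out 1 library gave 3 to 4. Between glomeruli and venules, 1 call became 2 without a filter, 2 with DESeq2 and 0 in the 8-library fit, and leaving out 1 library gave 0 to 1. Between capillaries and venules, 1 call became 3 without a filter, 2 with the library number as a block (Tppp3 and Crip1) and 0 in the 8-library fit, and leaving out 1 library gave 0 to 2. Only 4, 6 and 5 of the 10 genes passed the filter in the 8-library fits, Tppp3 not being among the 4 or the 5, and 2 had an unadjusted p under 0.05 in each comparison; where leaving out a library gave 0 calls by edgeR, 2 to 5 genes did. The block left the other counts at 3 and 1, but the 1 gene called between glomeruli and venules was then Slc4a3 (-3.95, FDR 0.0494) in place of Mall (FDR 0.187). The study cut several compartments from each mouse, but no source used here ties the column numbers to mice. The check made does not settle whether the numbers pair the libraries. Deviations of same-numbered libraries correlated weakly, between -0.0183 and 0.0309 over 24 pairs (median 0.0075). Those of differently numbered libraries ran from -0.0333 to 0.0421 over 72 pairs (median -0.0028). Of 16 libraries, 9 correlated best with a library of their own number. Relatives called ranged from 13 to 24 higher and 4 to 7 lower over all settings, with 14 and 4 under the block. Leaving out 1 library also ended the calls of Ogn, Cdkn1a, Serping1 and Cx3cl1 at least once (FDR up to 0.116, 0.135, 0.0593 and 0.105). Slc4a8 turned to -2.85 (FDR 0.392) without arteriole library 96, and ranged up to 5.12 when other libraries were left out.

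Scaling mattered for arterioles, and the order of their libraries depended on it, as given above. RLE size factors moved the median log2 fold change of all genes in arterioles by 0.245 and plain library totals by -0.34, and 79.6% and 56.6% of all calls were then higher, beside 71.5%. Between capillaries and venules these shares were 6.67% and 10.1%, beside 20%, and between glomeruli and capillaries, and glomeruli and venules, plain totals gave 74.4% and 66.2% beside 49% and 40.3%. Outside arterioles, counts near the floor limit what can be told for Serpinf1, Optc, Pi15, Cytl1 and Bmx.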
